A study of Homo sapiens with 9 samples.

Results

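Rab GTPases are the largest branch of the Ras family of small GTP-binding proteins and mark the membranes of the secretory and endocytic pathways. The genes described here were all genes of the array annotation whose symbol is RAB, digits, at most 1 letter and at most 1 further digit, on probe sets that name 1 gene, which gave 47 of 12078 genes on 105 of 27306 probe sets. They were followed over 9 expression arrays of 2 human leukemia cell lines. K562 is a myeloid leukemia line that can take on erythroid or megakaryocytic features, and HEL is an erythroleukemia line. The 6 K562 arrays were 2 of untreated cells, 1 each of cells given 25 µM and 50 µM hemin (the oxidised form of heme, given to induce erythroid features), 1 of cells given 5 nM of the phorbol ester PMA for 48 h (to induce megakaryocytic features) and 1 of cells given 100 nM decitabine (DAC, an inhibitor of DNA methyltransferases). The 3 HEL arrays were of untreated cells, cells given 5 nM PMA and cells given 20 nM DAC. DAC was added in 3 pulses of 24 h and cells were harvested 144 h after the first. The doses are those of the sample titles, and the shared protocol names other DAC doses and a single hemin dose. The labels do not say whether the untreated K562 arrays came from separate cultures, so the p-values reflect how far these particular arrays scatter, which could be technical scatter. As PMA, DAC and all HEL conditions had 1 array each, a test of them assumes that they vary like the untreated and hemin K562 arrays. The 25 µM and 50 µM hemin arrays formed 1 group in the tests, so the difference between doses counts as spread in every p-value.

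A Rab protein works as a membrane switch. Exchange factors load it with GTP on its own membrane, the GTP-bound form recruits effectors such as tethers, motor adaptors and docking proteins, and GTPase activating proteins return it to the GDP-bound form. A prenyl anchor added by Rab escort protein and geranylgeranyl transferase holds it in the membrane, and GDI extracts it for the next round. Different Rabs serve different steps, from ER and Golgi transport (RAB1, RAB2, RAB6) through early endosomes (RAB5) and recycling (RAB4, RAB11) to late endosomes (RAB7) and granule secretion (RAB3, RAB27). In megakaryocytes and platelets, RAB27A and RAB27B act in dense granule formation and secretion, and RAB32 and RAB38 in the making of lysosome-related organelles.

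Promoter windows from 250 bases before to 50 bases after an annotated start were at hand in RefSeq (build GRCh38.p14) for 36 of the 47 genes, in 53 windows. The first 3 windows below belong to genes that were over 1.5-fold higher with PMA in K562 cells, and each holds the heptamer TGAGTCA, the textbook phorbol ester response element bound by AP-1. The heptamer, read on either strand, is in capitals. The windows are RAB13 at chr1:153985344-153985643 (minus strand), RAB27B at chr18:54828227-54828526 (plus strand) and RAB5B at chr12:55973699-55973998 (plus strand). The last window, RAB11B at chr19:8390110-8390409 (plus strand), belongs to the Rab gene that was higher with DAC in both lines, and its 32 CpG dinucleotides are in capitals.
RAB13: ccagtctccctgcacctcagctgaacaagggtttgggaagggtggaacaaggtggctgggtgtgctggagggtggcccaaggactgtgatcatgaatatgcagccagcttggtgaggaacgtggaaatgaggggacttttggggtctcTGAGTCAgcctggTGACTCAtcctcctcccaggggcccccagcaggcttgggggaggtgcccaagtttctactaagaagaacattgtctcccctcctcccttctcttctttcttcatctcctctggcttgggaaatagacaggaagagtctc
RAB27B: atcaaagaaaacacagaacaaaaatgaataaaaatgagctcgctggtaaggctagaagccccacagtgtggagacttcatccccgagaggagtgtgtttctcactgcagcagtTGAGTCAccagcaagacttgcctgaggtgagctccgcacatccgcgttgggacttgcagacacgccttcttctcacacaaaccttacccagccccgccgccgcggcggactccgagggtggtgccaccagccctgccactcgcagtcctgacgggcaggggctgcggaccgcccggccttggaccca
RAB5B: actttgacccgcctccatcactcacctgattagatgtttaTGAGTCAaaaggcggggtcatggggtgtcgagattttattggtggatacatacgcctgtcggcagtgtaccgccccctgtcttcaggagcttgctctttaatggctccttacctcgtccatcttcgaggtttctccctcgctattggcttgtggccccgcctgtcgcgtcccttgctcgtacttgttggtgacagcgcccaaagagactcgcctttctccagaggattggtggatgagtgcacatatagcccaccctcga
RAB11B: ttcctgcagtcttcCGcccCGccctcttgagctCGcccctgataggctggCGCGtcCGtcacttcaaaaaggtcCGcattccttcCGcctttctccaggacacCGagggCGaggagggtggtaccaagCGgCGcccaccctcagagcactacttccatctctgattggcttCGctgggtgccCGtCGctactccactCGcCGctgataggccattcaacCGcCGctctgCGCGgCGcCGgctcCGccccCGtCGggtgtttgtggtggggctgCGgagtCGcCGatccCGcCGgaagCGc

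In these windows RAB13 had 2 copies of the heptamer, the first starting at base 149. RAB13, RAB27B and RAB5B each have 1 further annotated window in the table, which does not hold the heptamer, and which start these cells used was not measured. Of all 35116 windows in the table, 1738 (4.95%) held the heptamer on either strand. Of the 53 windows of Rab genes 4 did, each of a different gene. The gene not printed above was RAB3B, which stayed under the level that was read here in all 9 arrays. The heptamer is a description of these letters and not a binding site. RAB31, RAB22A, RAB5C, RAB6B, RAB8B, RAB14, RAB4A, RAB8A, RAB1B, RAB2B, RAB21, RAB5A and RAB29 were also over 1.5-fold higher with PMA in K562 cells. All of their windows in the table lacked the heptamer. RAB2A and RAB20, higher too, had no window in the table. The RAB11B window held more CpG than 81.1% of all windows, whose median was 14, and the RAB13 window held 1. Windows of other Rab genes held more than that of RAB11B. Among them, RAB31 (52) and RAB8B (38) were over 1.5-fold lower with DAC in K562 cells and RAB40B (34) was higher. Whether CpG content goes with the DAC difference was not tested.

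Levels are given as log2 expression (GCRMA values as deposited), and a value under 5 was taken as too close to background to carry an order. Of the 47 Rab genes, 41 reached 5 in at least 1 array, 35 of them in K562 and 41 in HEL cells. The 6 that did not were RAB3B, RAB3D and RAB26 (secretory granules), RAB4B (recycling), RAB15 and RAB43. In all 9 arrays, 31 of the 41 genes (75.6%) were at 5 or more, against 73.6% of the 10560 genes measured over all arrays. The 6 genes with the highest mean were RAB11A, RAB1A, RAB10, RAB5A, RAB13 and RAB7A, a choice by signal only, since levels of different probe sets cannot be ranked. RAB11A, of the recycling endosome, lay between 12.37 and 13.30 over the 9 arrays, and RAB1A, which acts between ER and Golgi, lay between 12.18 and 13.02. RAB10, which delivers vesicles to the plasma membrane, lay between 11.61 and 11.93. With RAB12, RAB24, RAB2B, RAB35 and RAB3A these were the 8 genes (19.5%; 12.5% of all genes) that were measured in every array and spanned less than 1 log2 unit. These spans are those of the brightest probe set, and the 3 probe sets of RAB11A differed by -0.98 to -0.105 with PMA in HEL cells.

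Facts of the whole set of arrays bear on what follows. Array medians lay between 6.67 and 6.78. The untreated K562 arrays differed over 1.5-fold in 24.6% of 9890 genes and in 7 of 35 Rab genes, namely RAB11B, RAB1B, RAB20, RAB27B, RAB40C, RAB5B and RAB8A. The cell type labels were checked against markers. Of 11 erythroid markers 9 reached 5 in both untreated K562 arrays and in untreated HEL cells. Of 10 megakaryocyte and platelet markers 3 and 2 did so in the untreated K562 arrays, 6 in the K562 PMA array, 9 in untreated HEL cells and 10 in HEL cells with PMA, and their summed linear signal was 381 and 365 in the untreated K562 arrays, 18221 with PMA, 11035 in untreated HEL cells and 26553 with PMA. PF4, GP9 and SELP were near the lowest value in all K562 arrays. Of 5 lymphocyte markers on the array at most 2 reached 5 in any array, which in K562 cells was CD3D alone (8.51 to 12.51). Of the monocyte and granulocyte markers on the array, LYZ reached 5 in all 9 arrays and ITGAM in 3 K562 arrays. In such bulk samples fewer cells of a type and less RNA per cell cannot be told apart.

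Between the lines, the widest difference among Rab genes read in both was that of RAB27A. Untreated K562 cells had RAB27A far above its HEL level, and had none of RAB32, RAB33A, RAB37 and RAB38 at a readable level. RAB27A, which docks and tethers secretory granules, was at 12.31 and 12.43 in untreated K562 cells and at 6.57 in untreated HEL cells. Its level lay between 10.75 and 12.61 over all K562 arrays and between 6.26 and 6.91 over the HEL arrays, so the lines did not overlap. The difference was 5.79 on the log2 scale, or 55.5-fold (SE 0.47, n = 2 and 1, limma over all 9 arrays, adjusted p = 0.0136). All 5 RAB27A probe sets that reached 5 were higher in K562 cells, and 2 of them were under 5 in untreated HEL cells, so that their sizes are not given. RAB27B, its close relative with a major part in platelet granules, was at 8.96 and 9.62 in untreated K562 cells and 10.96 in untreated HEL cells, a difference of -1.66 that did not pass the test (SE 1.20, limma adjusted p = 0.399).

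RAB32 and RAB38, which bring enzymes to melanosomes and platelet dense granules, were read in HEL cells only. RAB32 was at 8.95, 10.05 and 8.89 in untreated, PMA and DAC HEL cells and between 2.48 and 4.41 in the 6 K562 arrays. RAB38 was at 8.87, 8.13 and 8.78 in HEL cells and between 2.25 and 4.42 in K562 cells. RAB37, a Rab of secretory granules, was at 8.62, 9.60 and 8.14 in HEL cells and between 2.56 and 4.36 in K562 cells. RAB33A, of the Golgi and of dense-core vesicles, was at 8.25, 9.0 and 8.48 in HEL cells and between 2.26 and 2.57 in K562 cells. These 4 of 41 Rab genes (9.76%; 4% of all genes) were at 5 or more in every HEL array and under 5 in every K562 array. No Rab gene showed the opposite, which 2.86% of all genes did. With K562 set at 5, the untreated K562 minus HEL differences were at most -3.95 for RAB32, -3.87 for RAB38, -3.62 for RAB37 and -3.25 for RAB33A. As these genes were measured through the HEL arrays alone, no p-value is given for them.

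**Figure D1:**
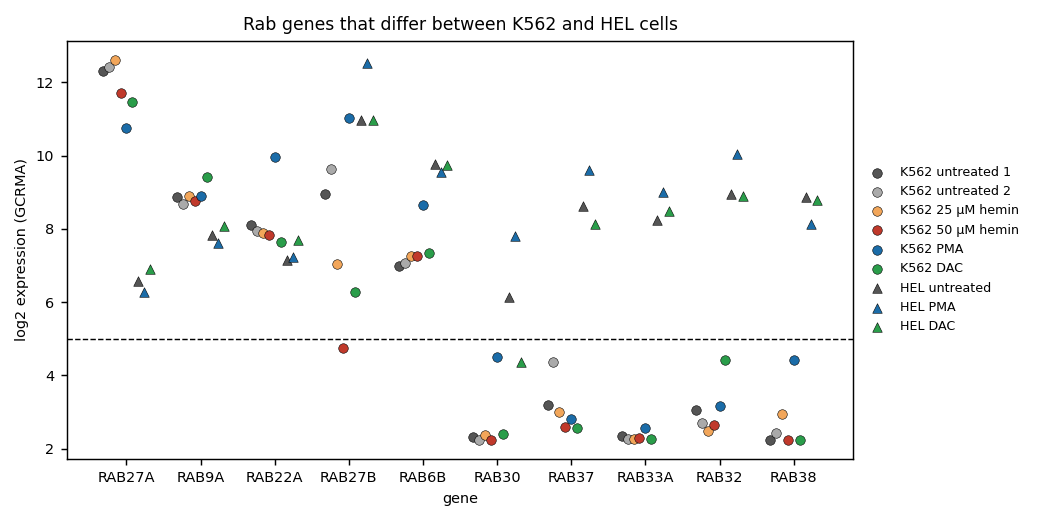
Log2 expression (vertical axis) of 10 Rab genes (horizontal axis) with 1 point for each array, circles for the 6 K562 arrays and triangles for the 3 HEL arrays, and a dashed line at 5. RAB27A lies between 10.75 and 12.61 in K562 and between 6.26 and 6.91 in HEL cells, and RAB37, RAB33A, RAB32 and RAB38 lie above the line in HEL cells only.

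Of the 41 Rab genes, 6 were read in HEL cells only and had to be lower in K562 cells. Of the 35 measured in both lines, 8 (22.9%) were over 1.5-fold higher in untreated K562 than in untreated HEL cells, against 28.9% of 8971 genes measured in both, and 11 (31.4%) were lower, against 22.4%. By limma 3 of the 35 (8.57%) were higher, against 7.97%, and 3 (8.57%) lower, against 6.13%, and their median difference was -0.02 against 0.11 over all genes measured in both. The 6 genes read in HEL cells only stand outside these counts, as their direction was fixed. The other higher genes were RAB22A of early endosomes, at 8.10 and 7.94 in K562 and 7.14 in HEL cells (0.87, SE 0.13, adjusted p = 0.0397), and RAB9A, which returns cargo from late endosomes to the Golgi, at 8.87 and 8.67 in K562 and 7.82 in HEL cells (0.95, SE 0.16, adjusted p = 0.0494). The lower genes read in both lines were RAB6B, RAB7A and RAB13. RAB6B, a Golgi Rab known mainly from neurons, was at 7.0 and 7.06 in untreated K562 and 9.78 in untreated HEL cells, with a difference of -2.75 (SE 0.10, adjusted p = 0.00291). RAB7A, the Rab of late endosomes and lysosomes, was at 10.57 and 10.32 against 11.67 (-1.22, adjusted p = 0.0472), and RAB13, of tight junctions and recycling, was at 10.45 and 10.54 against 11.47 (-0.98, adjusted p = 0.0302). Without either untreated K562 array most of these calls were lost, and RAB6B differed by -2.81 to -2.69 over all processing alternatives. Such a fit has fewer residual degrees of freedom, so what the calls rest on cannot be told. The other genes read in HEL cells only were RAB30, of the Golgi, at 2.33 and 2.25 in untreated K562 and 6.15 in untreated HEL cells, and RAB39B, at 2.25 in both untreated K562 arrays and 5.11 in HEL cells, just above the level that was read.

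With PMA in K562 cells, more Rab genes were higher than lower, while over all genes lower values were the more common. On the brightest probe set, all 6 genes placed in the early endosome group were over 1.5-fold higher. The probe sets of RAB21 ran from -0.89 to 0.95, the second of RAB22A differed by 0.28, and RAB5A differed by 0.60. The groups were made with earlier results of these data known, and RAB20, an endosomal Rab, was placed elsewhere. Of 35 measured Rab genes 18 (51.4%) were over 1.5-fold higher than the mean of the untreated arrays, against 26% of all genes, and 4 (11.4%) were lower, against 29.9%. With both untreated arrays passed as well, 17 were higher (25.6% of all genes) and 4 lower (29.7%). The median change was 0.60 over the Rab genes and -0.09 over all genes. By limma 5 genes (14.3%) rose, against 7.61% of all genes, and 0 fell, against 8.87%, and at an unadjusted p under 0.05 there were 13 Rab genes in both directions (36.1% of all genes). The rises were those of RAB13, RAB31, RAB22A, RAB5C and RAB6B.

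RAB13 was at 10.45 and 10.54 in untreated K562 cells, 10.15 and 10.04 with 25 and 50 µM hemin, 11.37 with DAC and 13.08 with PMA. The PMA value stood above every other K562 array, and the rise was 2.58, or 6.0-fold (SE 0.22, n = 1 against 2, limma adjusted p = 0.0105). In HEL cells, RAB13 was at 11.47 untreated, 13.18 with PMA and 11.52 with DAC, so PMA again stood alone, 1.71 or 3.27-fold higher with no replicate. RAB13 carries cargo to tight junctions and the leading edge of migrating cells, and 1 of its 2 annotated windows, printed above, holds the heptamer.

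In the early endosome group, RAB31, which acts between the trans-Golgi network and endosomes, was at 9.49 and 10.03 untreated, 10.23 and 9.67 with hemin, 8.81 with DAC and 11.91 with PMA (2.15, SE 0.40, limma adjusted p = 0.0421). Its 3 probe sets differed by 2.09 to 2.18. RAB22A, which acts in sorting at early endosomes, was between 7.64 and 8.10 in the other 5 K562 arrays and at 9.95 with PMA (1.94, SE 0.22, adjusted p = 0.0169), while its second probe set differed by 0.28. RAB5C, 1 of the 3 RAB5 genes that drive fusion of early endosomes, was between 9.49 and 10.09 in the other arrays and at 10.94 with PMA (1.44, SE 0.26, adjusted p = 0.0395). RAB31, RAB22A and RAB5C thus passed the test with the PMA array above all others. RAB5B was at 8.30 and 7.10 untreated and at 10.12 with PMA, a larger difference of 2.42 that did not pass, with the untreated arrays apart (SE 0.84, adjusted p = 0.131). RAB21 differed by 0.95 (adjusted p = 0.164) and RAB5A by 0.60 (adjusted p = 0.174), and the probe sets of RAB21 ran from -0.89 to 0.95. In HEL cells the 6 genes had a median PMA difference of 0.12, and only RAB31 was over 1.5-fold higher.

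In the other groups the differences were smaller or less even. Of 7 ER and Golgi genes, 4 were over 1.5-fold higher with PMA (26% of all genes) and RAB33B was lower (29.9% of all genes). RAB6B rose from 7.0 and 7.06 to 8.66 (1.63, SE 0.21, limma adjusted p = 0.0211). Its other probe sets differed by 1.41 and -0.88, and averaged over them the difference was 0.72 with an adjusted p of 0.148. RAB1B, the second RAB1 gene of ER to Golgi transport, was at 10.68 with PMA against 10.25 and 8.64, so 1 untreated array lay close to it (1.23, adjusted p = 0.32). RAB2A and RAB2B, which act between ER and Golgi, differed by 0.71 and 0.74 (adjusted p = 0.138 and 0.171).

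Of 9 genes of recycling and delivery to the plasma membrane, 5 were over 1.5-fold higher and 0 lower (26% and 29.9% of all genes). RAB13 was past the test. RAB8B, of vesicle delivery to the plasma membrane, was at 10.34 and 10.38 untreated and 11.94 with PMA (1.58, SE 0.51, adjusted p = 0.117). RAB14, RAB4A and RAB8A differed by 0.87, 0.88 and 0.68 (adjusted p = 0.0785, 0.126 and 0.286). RAB10, RAB35, RAB11A and RAB11B stayed within 1.5-fold, but the 3 probe sets of RAB11A ran from -0.42 to 0.86. The late endosome genes RAB7A and RAB9A differed by 0.36 and 0.14. RAB29, of lysosomes and the Golgi, was at 9.85 against 8.75 and 9.17 (0.89, adjusted p = 0.167). RAB20, an endosomal Rab, was 0.67 above the untreated mean but at 7.10 lay between the untreated arrays (5.68 and 7.18).

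The granule secretion pair moved in opposite directions with PMA in K562 cells. RAB27B was at 11.03 with PMA against 8.96 and 9.62 (1.73, SE 1.06, limma adjusted p = 0.316), and its other probe sets differed by 2.66 and 3.66. RAB27A was at 10.75 with PMA, its lowest K562 value, against 12.31 and 12.43 (-1.62, SE 0.45, adjusted p = 0.0859), and its 5 probe sets differed by -3.41 to -1.62. Neither difference passed the test, and for RAB27B the mean over probe sets did (2.69, adjusted p = 0.0345). In HEL cells RAB27B was at 12.52 with PMA against 10.96, and RAB27A at 6.26 against 6.57. The other lower genes were RAB28 (9.67 against 10.57 and 10.78, -1.0, adjusted p = 0.0846), RAB24 (7.73 against 8.29 and 8.72, -0.78, adjusted p = 0.14) and RAB33B, a Golgi Rab of the autophagy pathway (4.89 against 5.80 and 6.10, at most -0.95 with the PMA value set at 5, adjusted p = 0.0782).

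**Figure D2:**
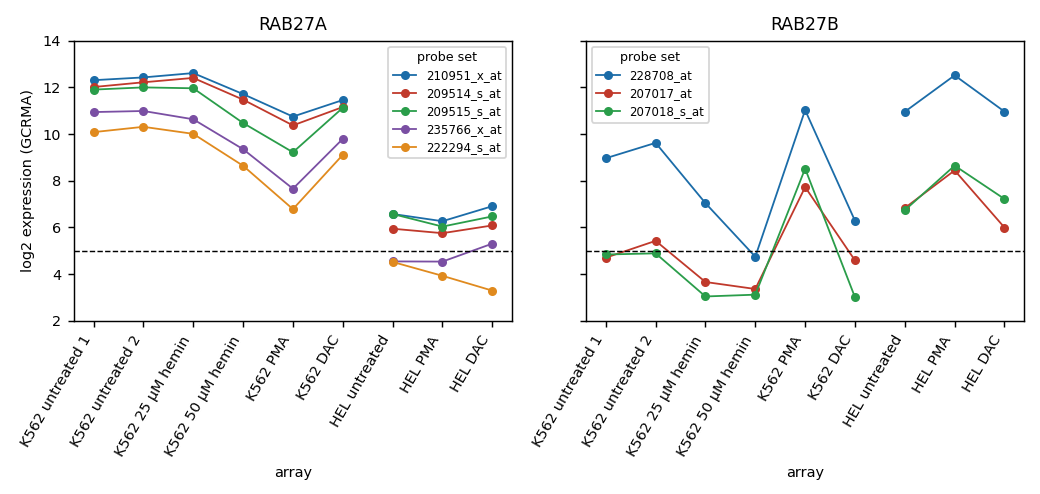
Log2 expression (vertical axis) of each probe set of RAB27A (5 probe sets) and RAB27B (3 probe sets) that reached 5, in the 6 K562 and 3 HEL arrays (horizontal axis), with a dashed line at 5 and lines joining arrays of 1 cell line as a guide to the eye. All RAB27A probe sets are lower with PMA than in untreated K562 cells, while all RAB27B probe sets are higher with PMA and lower with hemin.

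Without either untreated array no Rab call with PMA in K562 cells was kept. Leaving out an array also leaves fewer residual degrees of freedom, so this cannot tell what the calls rest on. All 12 proliferation genes fell with PMA in K562 cells by limma (median -3.43), and in HEL cells their median was -0.13, with 2 over 1.5-fold higher and 2 lower. Megakaryocyte and platelet markers were higher with PMA too. In K562 cells ITGB3, PPBP and GP1BA reached 5 in the PMA array alone and had to be higher there. CD9 was at 11.96 against 5.04 and 3.99, ITGA2B at 11.26 against 7.48 and 7.82, and TUBB1 at 9.92 against 6.67 and 6.02. PF4, GP9, SELP and THBS1 were under 5 in all K562 arrays. In HEL cells 7 of 10 markers were over 1.5-fold higher, of which PPBP reached 5 with PMA alone. Their part in the Rab differences was not tested.

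In HEL cells, where each condition had 1 array and no test was run, 9 of 41 Rab genes (22%) were over 1.5-fold higher with PMA, against 14.9% of all genes, and 4 (9.76%) were lower, against 16.8%. The higher genes were RAB13 (1.71), RAB30 (7.80 against 6.15, 1.65), RAB27B (1.56), RAB32 (1.10), RAB31 (1.03), RAB37 (0.99), RAB14 (0.86), RAB29 (0.82) and RAB33A (0.75). Of these, RAB27B, RAB32, RAB37 and RAB29 belong to the granule and lysosome-related groups. In the same groups RAB27A and RAB3A stayed within 1.5-fold and RAB38 was lower. RAB40B, of a subfamily that recruits ubiquitin ligases, was lower at 4.11 against 6.04, at most -1.04 with the PMA value set at 5. RAB38 was lower at 8.13 against 8.87 (-0.74), unlike RAB32. RAB33B was at 4.66 against 5.91 (at most -0.91) and RAB39B at 3.51 against 5.11 (at most -0.11).

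Both lines received 5 nM PMA, so their responses could be set side by side. Among the 35 Rab genes measured in both lines, RAB13, RAB14, RAB27B, RAB29 and RAB31 were over 1.5-fold higher in both (14.3%; 8.49% of 8971 genes) and RAB33B was lower in both (2.86%; 9.27% of genes). No Rab gene passed 1.5-fold in opposite directions, which 2.94% of genes did. RAB14 was counted in HEL cells on 1 of its 2 probe sets, as the other differed by -0.11 there and their mean by 0.38, which is within 1.5-fold. The test of the difference between lines called 0 Rab genes, and 1.46% of all genes as more and 1.2% as less increased in K562 cells (limma interaction over 9 arrays, 7 Rab genes at an unadjusted p under 0.05). The smallest adjusted p among Rab genes was that of RAB6B (0.0509), with a K562 change 1.87 above the HEL change (SE 0.16). RAB22A had a difference of changes of 1.86 (SE 0.20, adjusted p = 0.0624) and RAB13 one of 0.87 (SE 0.19, adjusted p = 0.148), so a larger response in K562 cells was not shown for any Rab gene.

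**Figure D3:**
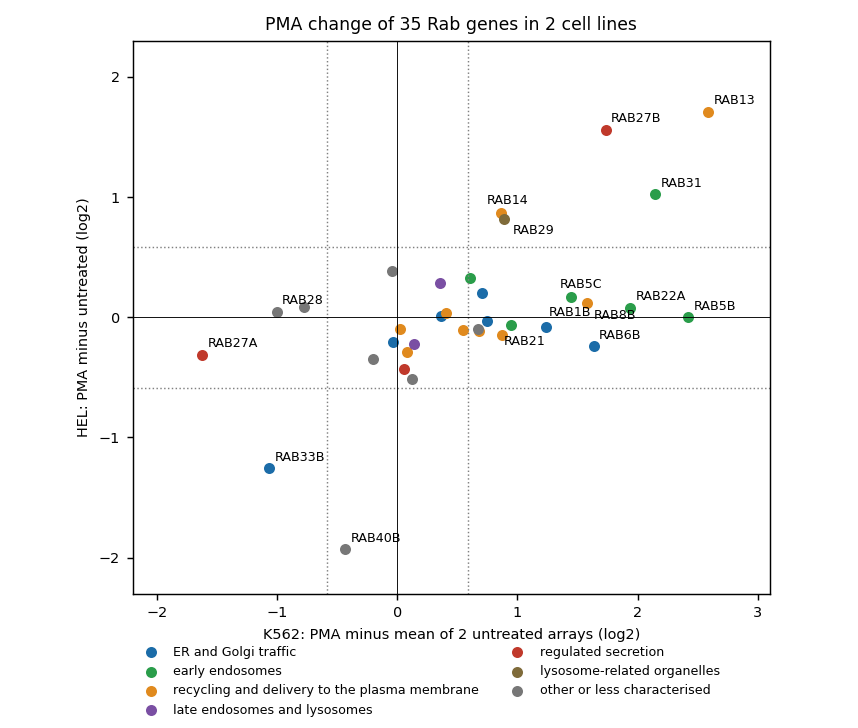
Log2 difference of PMA from untreated cells in K562 (horizontal axis, against the mean of 2 arrays) and HEL cells (vertical axis, against 1 array) for the 35 Rab genes measured in both lines, with 1 point for each gene coloured by traffic step and dotted lines at 1.5-fold. RAB13, RAB27B, RAB31, RAB14 and RAB29 lie beyond 1.5-fold in both lines, and RAB5B, RAB22A, RAB6B, RAB8B and RAB5C do so in K562 cells only.

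The genes that switch Rabs on and off were followed from lists of known regulators. Of 27 exchange factors measured in K562 cells 11 were over 1.5-fold higher and 2 lower with PMA (26% and 29.9% of all genes), with 0 higher and 1 lower by limma (7.61% and 8.87% of all genes) and a median of 0.24. The one that fell was ANKRD27, the exchange factor of RAB21 that also binds RAB32 and RAB38, from 11.13 and 11.54 to 9.32 (-2.01, SE 0.30, adjusted p = 0.0276), and it was at 10.44 against 12.06 in HEL cells. Of 27 GTPase activating proteins 7 were higher, near the share of all genes, and 5 lower, with a median of 0.02, and TBC1D7, a TBC domain protein best known as a subunit of the TSC complex, rose from 10.54 and 10.63 to 12.24 (1.65, SE 0.27, adjusted p = 0.0312). Of 7 genes of prenylation, membrane cycling and Rab phosphorylation 2 were higher and 4 lower, with a median of -1.10. RABAC1, a Golgi receptor for prenylated Rabs, rose from 7.32 and 7.74 to 9.18 (1.65, SE 0.32, adjusted p = 0.0464), while CHML, a Rab escort protein, was at 9.37 against 10.37 and 10.58 (-1.10, adjusted p = 0.0660).

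Of 29 effectors 12 were over 1.5-fold higher and 8 lower with PMA (26% and 29.9% of all genes), with a median of 0.46. By limma 3 were higher and 1 lower (7.61% and 8.87% of all genes). OPTN, the optineurin effector of RAB8, was at 7.10 and 6.96 untreated, 6.56 and 6.44 with hemin, 10.22 with DAC and 10.98 with PMA (3.95, SE 0.22, adjusted p = 0.0068), and in HEL cells it was at 8.14 untreated and 9.27 with PMA. Its change in K562 cells was 2.82 above that in HEL cells (SE 0.21, limma interaction adjusted p = 0.0424). PLIN3, which binds RAB9, rose to 12.66 from 10.74 and 10.53 (2.03, adjusted p = 0.0282), and PLEKHM1, a RAB7 effector of lysosome fusion, rose to 9.25 from 7.22 and 7.78 (1.75, adjusted p = 0.0466). APPL1, a RAB5 effector of signalling endosomes, fell from 7.22 and 7.32 to 5.51 (-1.76, SE 0.22, adjusted p = 0.0190) and was at 6.82 against 8.59 in HEL cells. Among other RAB5 effectors, EEA1 differed by -1.14 (adjusted p = 0.0722) and RABEP2 by 1.26 (adjusted p = 0.0678), neither past the test. Of the RAB27 effectors, SYTL1 was at 7.71 with PMA against 9.22 and 10.06 (-1.93, adjusted p = 0.42) and SYTL4 at 6.03 against 4.86 and 2.88 (adjusted p = 0.209), neither past the test.

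Between the untreated lines, of the regulators and effectors measured in both, limma called 3 of 25 exchange factors higher and 5 lower in K562 cells. It called 2 of 26 GTPase activating proteins higher and 1 lower, 2 of 27 effectors higher and 2 lower, and 0 of 7 genes of prenylation and cycling, where 7.97% of all genes measured in both lines were called higher and 6.13% lower. RAB11FIP1, an effector of RAB11, was at 9.57 and 8.86 in untreated K562 cells and 4.64 in untreated HEL cells (adjusted p = 0.0140). Among those read in HEL cells only was TBC1D9, at 2.25 in all K562 arrays and between 7.51 and 8.30 in HEL cells. OSBPL1A, an oxysterol-binding effector of RAB7, was at 4.01 and 4.03 in untreated K562 and 9.11 in untreated HEL cells. MYO5A, RIN3, DENND3 and TBC1D8B too were at 5 or more in every HEL array and under 5 in every K562 array, as were 4% of all genes. RILPL1 and DENND5B showed the opposite, as did 2.86% of all genes. With hemin and with DAC in K562 cells 0 genes of these lists passed the test, and the closest was OPTN with DAC (3.18, adjusted p = 0.067).

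On the mean of both hemin doses, the share of Rab genes over 1.5-fold lower was that of all genes, and a smaller share was higher. The largest difference was in RAB27B. With both doses as 1 group, 1 of 35 Rab genes (2.86%) was over 1.5-fold higher, against 9.32% of all genes. Lower were 5 (14.3%), against 14.4%. With both untreated arrays passed by both hemin arrays these were 1 (2.86%) and 4 (11.4%), against 8.22% and 11.4% of all genes. RAB11B is in both counts of lower genes, although its untreated mean and its hemin values were under 5. By limma 0 of 35 and 0 of 9890 genes passed, with 2 Rab genes (10.2% of all genes) at an unadjusted p under 0.05. The median over Rab genes was 0.0049, against -0.0059 over all genes.

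RAB27B was at 7.04 with 25 µM and 4.74 with 50 µM hemin against 8.96 and 9.62 untreated. Both hemin arrays lay below both untreated arrays, and the mean difference was -3.40 (SE 0.87, limma adjusted p = 0.485). At 50 µM the difference was at most -4.29 with that value set at 5. All 3 probe sets were lower, with mean differences of -3.40 to -1.55. RAB27A was at 12.61 and 11.71 with 25 and 50 µM against 12.31 and 12.43, so only the higher dose lay below the untreated arrays. Of the RAB27 effectors, SYTL1 was at 8.65 and 5.33 against 9.22 and 10.06 (adjusted p = 0.501) and UNC13D, which primes granules for fusion, at 7.24 and 6.62 against 8.87 and 7.63 (adjusted p = 0.49). EXPH5 was at 6.54 and 5.15 against 6.13 and 6.53 and so was not lower at 25 µM, SYTL3 and SYTL4 were under 5 in the untreated and hemin arrays, and SYTL2 was near the lowest value in all arrays. Of all 29 effectors 1 was over 1.5-fold higher and 7 lower with hemin (9.32% and 14.4% of all genes), and 0 passed the test.

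RAB5B was at 6.66 and 5.22 with hemin against 8.30 and 7.10 (-1.77, SE 0.69, adjusted p = 0.49), and RAB8B at 10.21 and 9.13 against 10.34 and 10.38 (-0.69, adjusted p = 0.557). RAB11B was at 3.64 and 2.60 against 5.33 and 4.45, with a mean under 5 on both sides, so that no size is given. RAB1B was at 8.30 and 8.77 and overlapped the untreated arrays (10.25 and 8.64). RAB29 was the gene with higher values, at 9.38 and 9.90 against 8.75 and 9.17 (0.68, SE 0.29, adjusted p = 0.493). The smallest adjusted p of any Rab gene was 0.485, that of RAB27B and RAB11B.

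By dose, at 25 µM 0 genes were over 1.5-fold higher (7.86% of all genes) and 5 (14.3%) lower (9.82% of all genes). At 50 µM 2 (5.71%) were higher (15.3% of all genes) and 7 (20%) lower (21% of all genes). Each dose had 1 array. Leaving aside RAB11B, which is in both counts, the lower genes at 25 µM were RAB27B, RAB1B, RAB5B and RAB8A, and at 50 µM they were RAB27B, RAB5B, RAB8B, RAB40B, RAB1B and RAB27A. RAB29 and RAB5C were higher at 50 µM (0.93 and 0.59). Erythroid markers moved with hemin too, with 4 of 11 over 1.5-fold higher and 1 lower on the mean of both doses and a summed linear signal of 100183 and 138193 against 63428 and 25901. Of 6 megakaryocyte and platelet markers measured, 3 were over 1.5-fold lower on the mean of both doses and TUBB1 was higher (2.60, adjusted p = 0.462). ITGA2B was at 5.83 and 2.56 with hemin against 7.48 and 7.82, while CD9 and PPBP were under 5 with hemin and had an untreated mean under 5. CD3D differed by -1.47. The part of these markers was not tested.

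**Figure D4:**
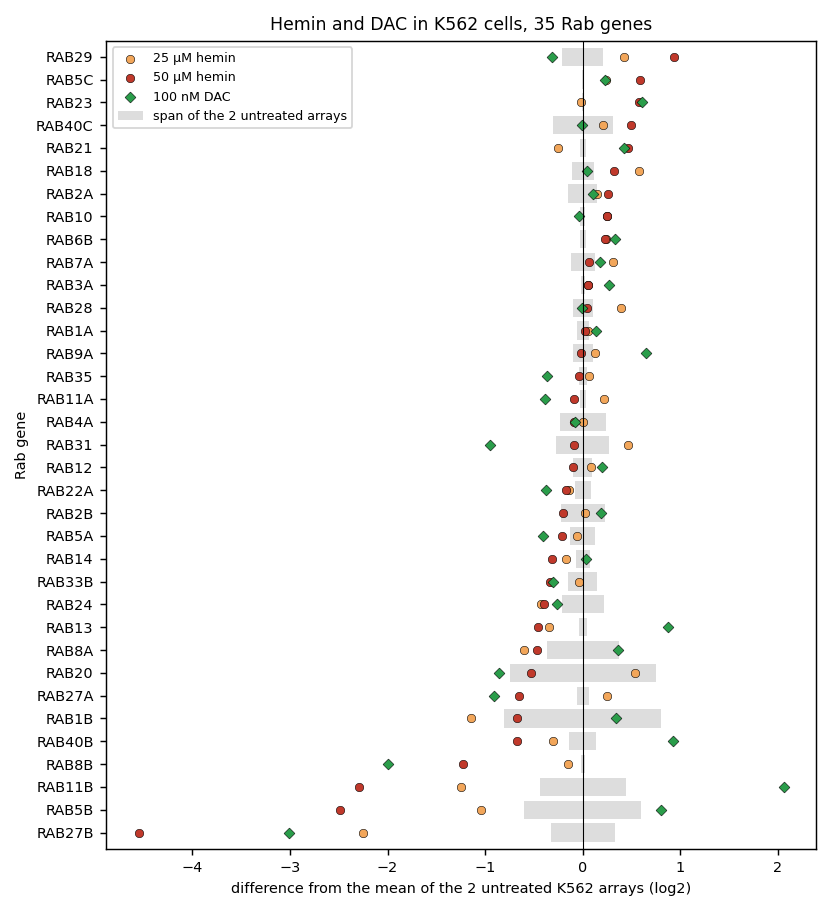
Log2 difference from the untreated K562 mean over 2 arrays (horizontal axis) for 35 Rab genes (vertical axis, ordered by the 50 µM hemin difference), with 1 point each for 25 µM hemin, 50 µM hemin and 100 nM DAC, and a grey bar for the span of the untreated arrays. RAB27B lies lowest with 50 µM hemin and with DAC, RAB5B lies low with hemin and high with DAC, and RAB11B does too but was under 5 with hemin.

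DAC in K562 cells was followed by higher RAB11B and lower RAB27B and RAB8B, none of which passed the test. Of 35 Rab genes 6 (17.1%) were over 1.5-fold higher, against 14.9% of all genes, and 5 (14.3%) were lower, against 17.8%, and each of them lay beyond both untreated arrays (14.6% and 17.3% of all genes did). By limma 0 Rab genes passed, with 0.0607% of all genes called higher and 0% lower, and 5 Rab genes had an unadjusted p under 0.05 (10.7% of all genes). RAB11B, the close relative of RAB11A in recycling, was at 6.95 with DAC against 5.33 and 4.45, at least 1.79 with the untreated array under 5 set at 5 (adjusted p = 0.445). In HEL cells RAB11B was at 6.81 with DAC, 4.31 untreated and 4.35 with PMA, at least 1.81 with no replicate. The DAC array was thus the highest for RAB11B in both lines, at 100 nM and at 20 nM, and 1.5% of genes measured in both lines were over 1.5-fold higher with DAC in both. RAB11B was the single Rab gene among them.

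The other higher genes in K562 cells were RAB40B (8.31 against 7.52 and 7.25, 0.92), RAB13 (11.37 against 10.45 and 10.54, 0.88), RAB5B (8.51 against 8.30 and 7.10, 0.80), RAB9A (0.65) and RAB23, a regulator of Hedgehog signalling (0.61), with limma adjusted p from 0.402 to 0.706. The lower genes were RAB27B, at 6.28 against 8.96 and 9.62 (-3.01, SE 1.06, adjusted p = 0.463), and RAB8B, at 8.37 against 10.34 and 10.38 (-1.99, SE 0.51, adjusted p = 0.408). The 3 probe sets of RAB27B differed by -3.01 to -0.48, the smallest of these within 1.5-fold, and the 3 of RAB8B by -2.22 to -1.85. RAB31 (-0.95), RAB27A (11.46 against 12.31 and 12.43, -0.91) and RAB20 (-0.85) were lower too. SYTL1 was at 5.46 against 9.22 and 10.06 (-4.18, adjusted p = 0.467). On the probe set that stood for each gene, RAB27B, RAB8B and SYTL1 thus lay below both untreated arrays with DAC as they did with hemin. These differences share the same untreated arrays. Erythroid markers were higher in the DAC array as well, 9 of 11 over 1.5-fold (14.9% of all genes), with a summed linear signal of 142337. Of these, AHSP and EPB42 reached 5 in K562 cells in the DAC array alone and had to be higher. The part of these markers in the Rab differences was not tested.

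In HEL cells, 20 nM DAC left RAB11B as the 1 of 41 genes that was over 1.5-fold higher (4.27% of all genes), and 3 were lower (6.05% of all genes). RAB39B was at 2.97 against 5.11 (at most -0.11 with the DAC value set at 5), RAB30 at 4.38 against 6.15 (at most -1.15) and RAB33B at 4.77 against 5.91 (at most -0.91). All 3 thus lay under 5 with DAC. The probe sets of RAB30 disagreed, from -1.77 to 1.44. RAB27B stayed at 10.96 in HEL cells with DAC, and RAB8B was at 10.77 against 10.97. The test of the difference between lines called 0 Rab genes and 0% of all genes (limma interaction, 6 Rab genes and 6.99% of all genes at an unadjusted p under 0.05), and for RAB27B it gave -3.02 (SE 1.84, adjusted p = 0.851). As the lines received different doses, these values are side by side only.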

How the data were processed

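The authors of the series deposited log2 expression values per probe set, which their processing notes credit to GCRMA (background correction from probe sequence, quantile normalization and summary of probes) without a version. Hemin exposure time and how probe sets were chosen are not given in the sources used here. Quantile normalization would hide a change common to most genes, and the number of arrays limits the precision.

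Of 27306 probe sets 22858 named 1 gene, 1164 named several and were left out, and 3284 were not listed. Probe sets reaching 5 in at least 1 array of a comparison entered, the one with the highest mean over all arrays stood for its gene, and this left 9890 genes in K562, 9641 in HEL and 10560 over 9 arrays. Groups came from the sample labels. R 4.3.3 and limma 3.58.1 (lmFit, eBayes) fitted the 6 K562 arrays in 4 groups, with hemin doses together, and all 9 arrays in 7 groups for line and interaction contrasts. Adjusted p is Benjamini-Hochberg over all genes, with a threshold of 0.05. Residual degrees of freedom were 2 in each fit. Fits were tested on simulated data. HEL differences and single doses had no test. An exact permutation of 2 hemin against 2 untreated arrays cannot go below 0.333 (two-sided).

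Named genes were, in each comparison, every Rab gene past the test and the 6 largest rises and falls over 1.5-fold beyond both untreated arrays, and the 6 brightest. Regulators and effectors were named for PMA by a like rule cut to those past the test and RAB27 partners. Members and lists were chosen with earlier results of these data known. Promoter windows are from RefSeq, GRCh38.p14. Alternatives were quantile normalization, median centring, other minimum levels, averaged probe sets, the brightest probe set in K562 alone, 1 fit of all arrays, the 4 untreated and hemin arrays alone, an intensity trend, and leaving out each untreated or hemin array.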

Additional observations from a re-analysis of the deposited data

Results flagged for a closer look

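Probe sets that name several genes were outside the comparisons, and some of those shared by a Rab gene and a neighbouring or readthrough gene passed 1.5-fold with PMA. The 3 probe sets shared by RAB4B and the readthrough gene MIA-RAB4B differed from the untreated mean by 1.14, 1.16 and 1.26 on the log2 scale in K562 cells with PMA, and by 1.01, 0.99 and 0.97 in HEL cells with PMA, in the same order. RAB4B on its own probe set stayed under 5 in all 9 arrays. A probe set shared by RAB6D and RAB6A was 0.74 higher with PMA in K562 cells and differed by -0.77 in HEL cells, while a brighter probe set of the same pair differed by 0.51 and 0.04. One shared by RAB43 and ISY1-RAB43 was 0.65 higher with PMA in K562 cells. Which of the genes gave these values cannot be told apart, and HEL values are of 1 array each.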

How the results depend on the processing

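Of 276 counts recomputed under the alternatives 249 stayed within 1.5 times, and of 526 values of named genes 473 kept direction and call. Leaving out an untreated or hemin array gave 0 to 3 genes over 1.5-fold higher with hemin. Calls by limma of higher genes with PMA in K562 cells went from 5 to 3 with averaged probe sets (RAB13, RAB22A and, newly, RAB27B) and to 0 without either untreated array. In the line comparison fewer genes were called higher with quantile normalization, with an intensity trend and without either untreated array. Its count of lower genes is not given, as it takes in the genes read in HEL cells only, which had to be lower. At a minimum of 6, genes lower in HEL cells were 2 with PMA and 1 with DAC. RAB39B with PMA in HEL cells turned to 0.43 at a minimum of 4 and with no filter, where another probe set stood for it. RAB30 with DAC in HEL cells moved to -0.21 with averaged probe sets. Alternatives for single doses and interactions were chosen after seeing the data. At 25 µM hemin, higher genes were 1 at a minimum of 4, 2 with no filter and 1 to 3 without an untreated array, and lower genes 3 to 5. At 50 µM, higher genes were 1 with quantile normalization and 4 with median centring, and lower genes 4 with median centring. The PMA interaction called 1 gene higher at a minimum of 4, 3 with no filter and 1 with a trend, and the DAC interaction 2 with a trend. RAB31 lost its PMA call in 1 fit of all arrays (adjusted p = 0.0705) with no filter (0.0847) and with averaged probe sets (0.0516), RAB5C with no filter (0.0525) and with averaged probe sets (0.0524), and RAB6B with averaged probe sets (0.148). RAB22A and RAB9A lost the line call under both other scalings and with a trend. No paired analysis was possible because the labels give no replicate numbers that groups share. The cause of these changes was not tested. Precision is limited by 2 residual degrees of freedom, and changes of genes under 5 could not be read.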

Other observations

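The 2 probe sets shared by RAB34 and NARR, a gene that overlaps it, were at 11.02 and 11.19 and at 10.30 and 10.63 in untreated and PMA HEL cells, and between 2.49 and 2.55 and between 2.31 and 2.45 in the 6 K562 arrays. RAB34, known for Golgi and ciliary membrane traffic, had no probe set of its own here. The share of each gene in these values cannot be told apart. The probe set shared by RAB6D, RAB6C and RAB6A lay between 11.32 and 12.36 in all 9 arrays.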
